A study of Mus musculus with 7 samples.

Results

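The small intestine of untreated mice lacking Atg4b was compared with that of untreated wild-type (WT) mice, using the pair of ileum arrays among the 7 arrays of the series. The comparison was the log2 intensity on the Atg4b knock-out (KO) ileum array minus that on the WT ileum array, gene by gene, for 19938 genes, each read from its brightest probe set. Positive values mean a higher signal in KO. Each ileum group holds 1 array, so a difference between them has no replicate check and is given as a value. Both groups carry the strain label C57Bl6/129Sv, a mixed background, are labelled 3 months old and received no treatment, and they differ by genotype. Their labelled sex differs as well: WT ileum is labelled female and KO ileum male. The arrays themselves showed the male pattern for both, so the female label of WT ileum is at odds with its array. The noncoding RNA of the inactive X chromosome, Xist, was at 5.52 in WT and 5.28 in KO ileum. The Y-linked Eif2s3y was at 9.39 and 9.77. The DSS arrays, by contrast, showed the female pattern, with Xist between 12.16 and 12.55 and Eif2s3y between 4.28 and 4.39.

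The remaining 5 arrays of the series are from colon. Untreated WT and KO mice of the same strain and age label gave 1 control colon array each. Mice given dextran sulfate sodium (DSS), which injures the colonic epithelium, for 7 days and then water for 3 days gave 1 WT and 2 KO colon arrays. The labels do not say whether the ileum and the control colon of one genotype came from the same mouse, nor what was changed in the Atg4b gene to make the knock-out.

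Autophagy encloses cytoplasm in a double membrane that then fuses with lysosomes. Atg4 proteases trim the ubiquitin-like Atg8 proteins (the LC3 and GABARAP families), so that these can be joined to lipid on the growing membrane, and later cut them off again, and Atg4b is the family member with the broadest activity on Atg8 proteins. In the ileum, autophagy is best known for its role in Paneth cells, the granule-filled cells at the crypt base that secrete antimicrobial proteins. The ileum also reclaims bile acids and vitamin B12, and its wall holds lymphoid tissue, stroma, vessels, nerve and muscle, all of which add RNA to a tissue sample. In such a sample, fewer cells of a type and less RNA per cell cannot be told apart.

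The arrays carried the ileal label in their genes. The bile acid binding protein Fabp6 was at a log2 intensity of 12.30 in WT and 12.78 in KO ileum against 5.17 to 5.39 on the 5 colon arrays, and the bile acid importer Slc10a2 at 11.49 and 11.28 in ileum. Cubn, the receptor for vitamin B12 bound to intrinsic factor, was at 11.90 and 12.01, and the disaccharidase Sis at 12.71 and 13.23. The colonic water channel Aqp8 was at 6.16 and 5.75 in ileum against 10.68 to 12.05 in colon. Median intensity was 123.10 on the WT and 123.20 on the KO ileum array.

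Atg4b itself separated the genotypes. Its log2 intensity was 7.72 in WT ileum and 5.39 in KO ileum, a difference of -2.33. In colon it was at 7.35 in WT control, 7.59 in WT DSS, 5.45 in KO control, and 5.39 on both KO DSS arrays. The KO ileum value therefore lay with the other KO arrays, and below the lower quartile of 5.71 for all genes on its own array. The 12 genes that flank Atg4b on chromosome 1 (6 on each side) differed by -0.23 (Neu4, a sialidase) to 0.51 (Gal3st2c, a sulfotransferase), and none by 2-fold.

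The rest of the autophagy machinery was at nearly the same level in both ileum arrays. Of 59 other measured genes of autophagy and the lysosome, 0 were 2-fold apart, with a range of -0.28 to 0.52 and a median of 0.08; over all genes the median was -0.01. The other proteases of the family, Atg4a (9.23 in WT, 9.24 in KO), Atg4c (8.39 and 8.42) and Atg4d (9.13 and 9.03), differed by 0.02, 0.03 and -0.10. The 5 measured Atg8 genes, which encode the substrates, ran from -0.28 for Map1lc3a (8.46 and 8.18) to 0.09 for Map1lc3b (10.39 and 10.48). Gabarap was at 12.97 in WT and 12.94 in KO ileum. Among the genes of the conjugation machinery, Atg12, a ubiquitin-like protein that is joined to Atg5, had the largest difference, with 8.06 in WT and 8.58 in KO ileum. Atg5 itself (8.61 and 8.68), the activating enzyme Atg7 (8.68 and 8.77) and the scaffold Atg16l1 (8.50 and 8.61) differed by 0.11 or less. The transcripts other than Atg4b gave no member past 2-fold, and protein or lipidation of Atg8 was not measured.

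Across the genome, 124 genes were at least 2-fold higher in KO ileum, which is 0.622% of the genes, and 53 were at least 2-fold lower, which is 0.266%. The share of all genes with a positive difference was 46.6%, and these shares are the background for the counts of list members given in the text. At 4-fold the split was 10 higher and 14 lower, so that the higher side held more genes and the lower side more of the large differences. Control colon, measured the same way with 1 array a genotype, had 35 genes higher (0.176%) and 57 lower (0.286%), together 92 (0.461%), and its KO and WT arrays had no array in common with the ileum pair. The only replicates in the series, the 2 KO DSS colon arrays, were themselves 2-fold apart in 248 genes (1.24%), 149 higher (0.747%) and 99 lower (0.497%) in replicate 1, more than the 177 (0.888%) in ileum. The SD of the differences over all genes was 0.265 in ileum, 0.271 in control colon and 0.313 between the KO DSS replicates. The number of genes past 2-fold in ileum was thus lower than between these 2 arrays of one group. That pair is DSS-treated colon, so the spread between arrays of untreated ileum was not measured.

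**Figure D1:**
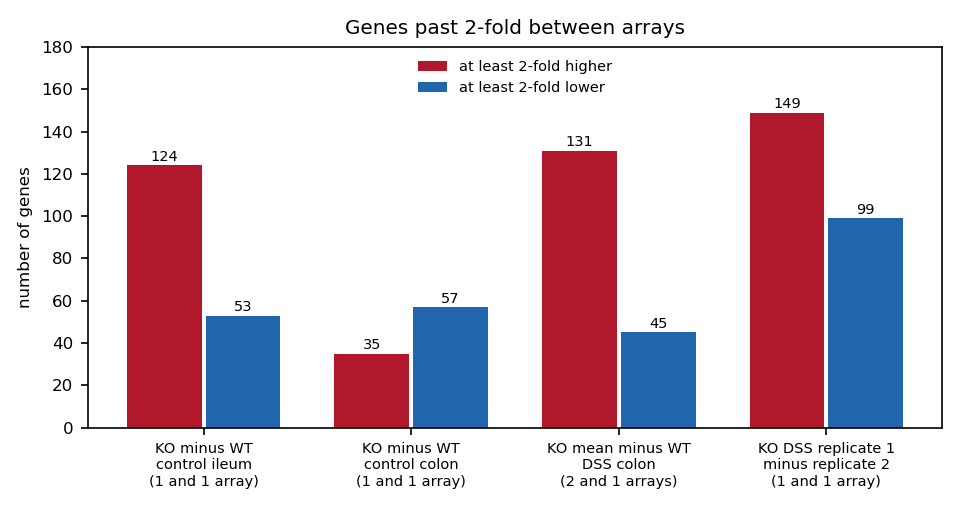
Number of genes (vertical axis) at least 2-fold higher (red) or lower (blue) in KO against WT ileum, KO against WT control colon, mean KO against WT DSS colon, and between the 2 KO DSS replicates. The ileum bars stand at 124 and 53, and the replicate bars at 149 and 99.

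A test was possible only by lending the ileum arrays the spread of the KO DSS pair. In limma's model of 6 groups, which has 1 residual degree of freedom and assumes that the lone ileum arrays vary like that pair, 0 genes passed an adjusted p of 0.05 for KO against WT in ileum, while 549 (2.75%) had an unadjusted p under 0.05. The smallest adjusted p was 0.181, for Slc6a14, followed by 0.253 for St3gal4, and Atg4b, with a standard error of 0.17, reached 0.515. The count depended on how the variance was modelled: 9 genes passed in limma with a variance trend and robust fit, and 7 when control and DSS colon shared 1 KO effect. The last count depended on the KO DSS pair: it rose without replicate 1 and fell without replicate 2. Without WT DSS, WT control colon or KO control colon, only the KO DSS pair gives residual spread. Those fits repeat the 6-group test, so they cannot show whether the count rests on those arrays. Cyp3a11, Fa2h, Slc6a14 and St3gal4 were the genes called both with the variance trend and with the shared colon effect on all 7 arrays. Genes hardly detected in colon, such as Cyp3a11 at 4.24 to 4.56 there, borrow a spread from arrays on which they are near the floor.

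**Figure D2:**
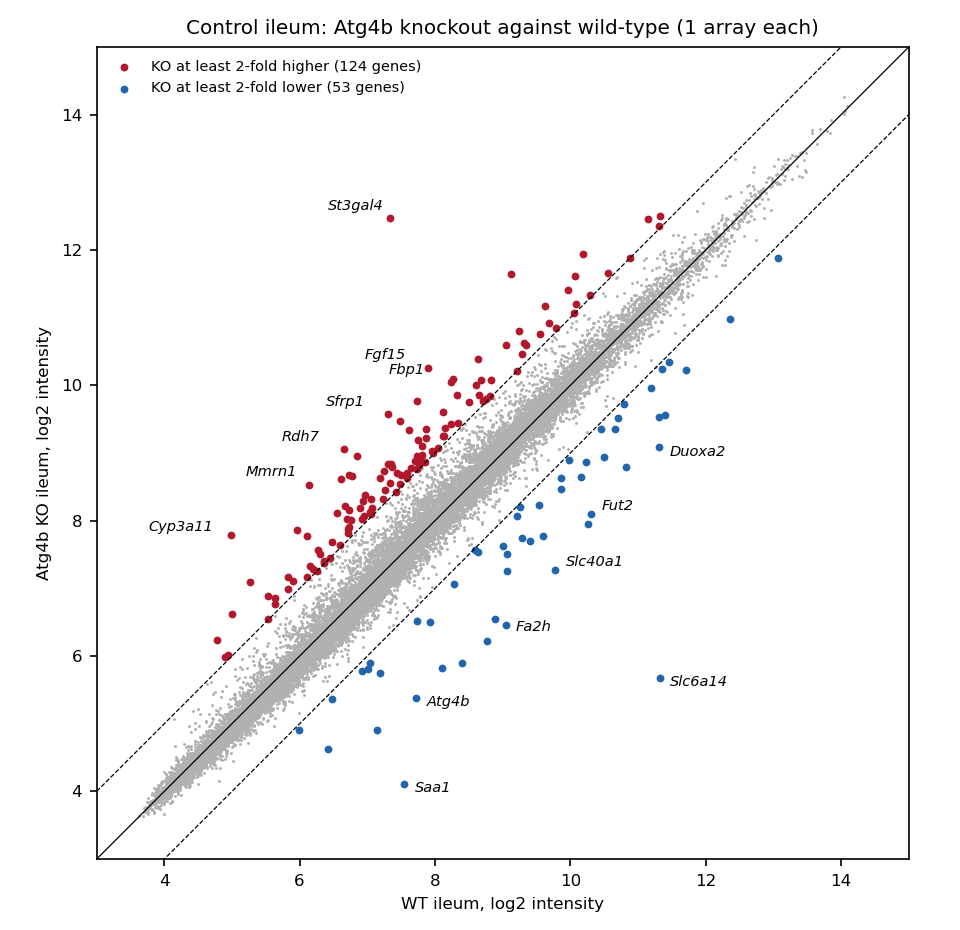
Log2 intensity of 19938 genes on the KO ileum array (vertical) against the WT ileum array (horizontal), with the line of equality and dashed lines at 2-fold; 124 genes lie above (red) and 53 below (blue). St3gal4 (7.34 in WT, 12.47 in KO) and Slc6a14 (11.32 in WT, 5.68 in KO) stand farthest from the line.

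The largest differences belonged to a pair of epithelial genes. St3gal4, a sialyltransferase that caps the galactose ends of glycans with sialic acid, was at 7.34 in WT ileum and 12.47 in KO ileum, a difference of 5.14 or 35.2-fold. All 5 colon arrays lay between the ileum values, at 9.77 to 10.36, and did not separate by genotype. Slc6a14, a transporter that imports neutral and basic amino acids with sodium and chloride, was at 11.32 in WT and 5.68 in KO ileum, a difference of -5.65. The KO value lay below the lower quartile of its array (5.71), where signal and background cannot be told apart, so no fold is given. On the colon arrays it was at 11.54 to 12.41, so that the KO ileum array stood alone and the WT ileum array was close to the colon. In control colon the corresponding KO minus WT differences were -0.47 for St3gal4 and -0.28 for Slc6a14. The contrast between the ileum and the control colon effect was 5.61 for St3gal4 and -5.37 for Slc6a14, each with an adjusted p of 0.676 in limma's 6-group model; over all genes that contrast had 0 calls and 638 (3.2%) at an unadjusted p under 0.05. With a variance trend and robust fit 3 genes were called for it, Slc6a14 (adjusted p = 0.0081), St3gal4 (adjusted p = 0.00936) and Cyp3a11 (adjusted p = 0.0354), in limma.

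**Figure D3:**
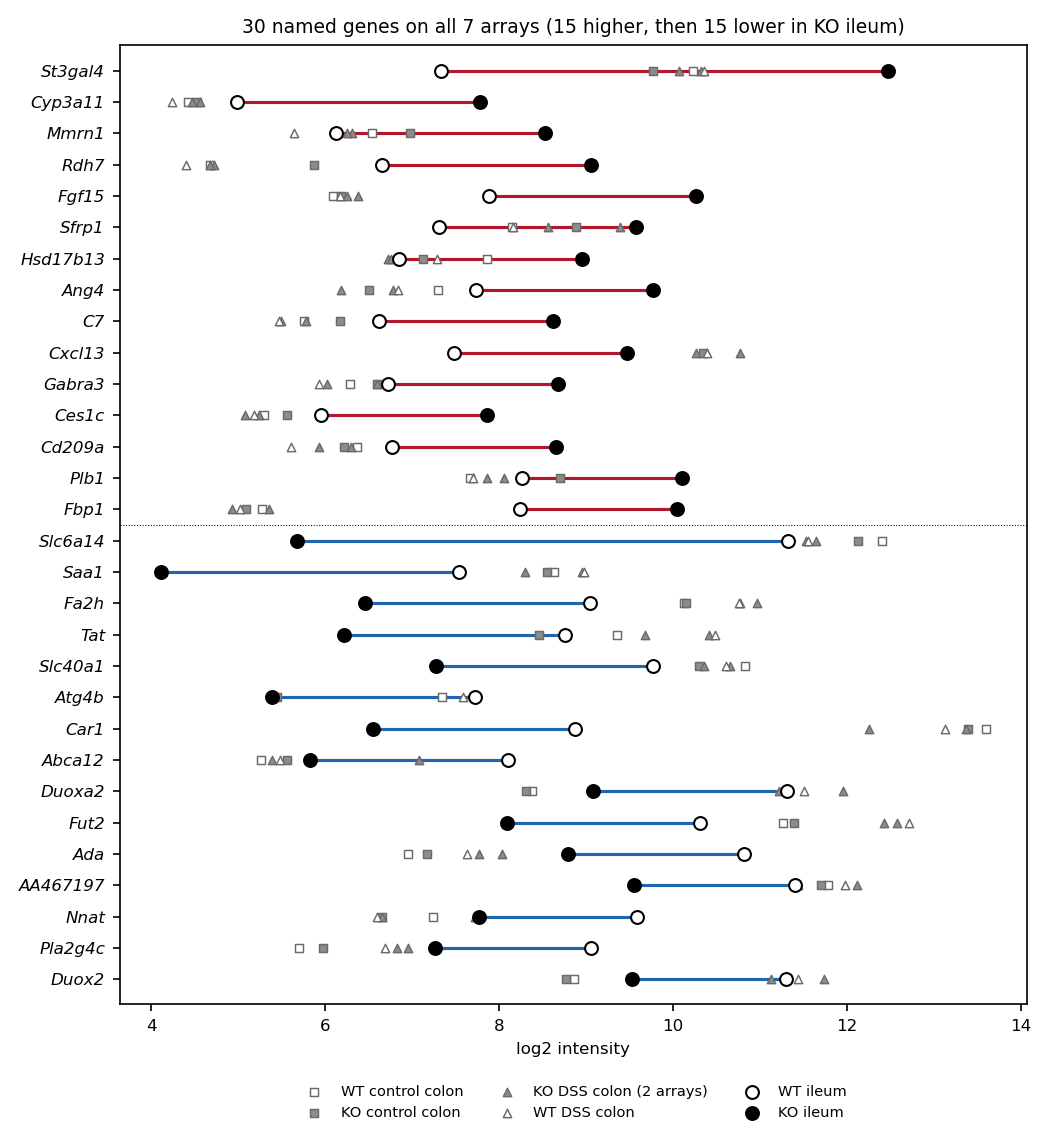
Log2 intensity (horizontal axis) on each of the 7 arrays for the 15 genes with the largest differences each way among the brighter named genes; circles are ileum (open WT, filled KO), squares control colon and triangles DSS colon, and a line joins the ileum pair. For St3gal4 the colon arrays lie between both ileum arrays, and for Slc6a14 only KO ileum is low.

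Some genes of detoxification and of lipid and sugar handling were on the higher side. Cyp3a11, a major cytochrome P450 of drug and bile acid oxidation, was at 4.99 in WT and 7.78 in KO ileum, a difference of 2.79, and the WT value lay below the lower quartile of its array. In colon it lay at 4.24 to 4.56. Rdh7, a retinol and steroid dehydrogenase, was at 6.66 in WT and 9.06 in KO ileum (2.40), and it was also higher in KO control colon, with 4.68 in WT and 5.87 in KO. The carboxylesterase Ces1c went from 5.95 in WT to 7.87 in KO ileum (1.91), and Hsd17b13, a lipid droplet enzyme, from 6.85 to 8.96 (2.11). Of 21 measured genes of phase 1 metabolism, 4 were at least 2-fold higher and 0 lower, with a median of 0.38 (0.33 between the KO DSS replicates). The other 3 were Cyp2c55 (6.96 and 8.38), Cyp4b1 (8.15 and 9.38) and Cyp2c65 (9.79 and 10.84). Cyp2c55 and Cyp2c65 also differed by 4.92 and 4.38 between the 2 KO DSS replicates, so these genes varied widely inside one group. Cyp2e1 (-0.80), Ces1f (-0.74) and Ces1g (-0.53) had the opposite sign.

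Fgf15, the hormone that ileal enterocytes secrete in response to bile acids and that represses bile acid synthesis in the liver, was at 7.89 in WT and 10.26 in KO ileum, a difference of 2.37 or 5.18-fold. It was at 6.09 to 6.38 on every colon array. It was the only one of 9 measured genes of ileal bile acid and vitamin B12 uptake past 2-fold. The importer Slc10a2 (-0.22), both subunits of the basolateral exporter, Slc51a (-0.19) and Slc51b (-0.02), and the bile acid receptor Nr1h4 (-0.17) had values below 0, and Fabp6 (0.48) and Nr0b2 (0.52), a repressor induced by that receptor, above 0. Fgf15 thus stood apart from the transport genes of its own list.

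In the list for fat absorption 3 of 19 measured genes were at least 2-fold higher and 0 lower, 17 of 19 had a positive difference and the median was 0.17. The 3 were the apolipoproteins Apoa4 (8.64 in WT, 10.39 in KO; 1.76) and Apoc3 (9.55 and 10.76; 1.20), and Creb3l3 (1.39 above its WT level of 8.61), a membrane-bound transcription factor that controls apolipoprotein genes in liver and intestine. Plb1, a brush border phospholipase, was at 8.26 and 10.10, and 6 of its 7 probe sets were past 2-fold, with differences of 0.79 to 3.32. Among sugar genes, the gluconeogenic enzyme Fbp1 was at 8.24 in WT and 10.05 in KO ileum (1.80) and G6pc, which releases free glucose, at 7.80 and 9.10 (1.30). Slc2a2, the transporter through which glucose leaves the enterocyte, was at 6.67 and 8.21 (1.55). The gluconeogenic Pck1, which the adipocyte list holds, had the opposite sign, with 9.26 and 8.20 (-1.06).

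Enzymes of the brush border were mostly level. Of 15 measured, Mme, the peptidase neprilysin, was higher at 9.63 in WT and 11.18 in KO (1.55), and Treh, which splits trehalose, at 7.98 and 8.99 (1.02); none was 2-fold lower and the median was 0.13. Of 18 nutrient transporters 1, Slc2a2, was past 2-fold, and the median was -0.02. The efflux pump Abcc2 (8.68 and 10.07; 1.40) and the glucuronosyltransferase Ugt2b36 (6.71 and 7.82; 1.10) were the 2 of 17 measured phase 2 and efflux genes past 2-fold. Slc40a1, the iron exporter ferroportin, lay on the lower side, at 9.77 in WT and 7.27 in KO ileum (-2.50 or 5.67-fold) against 10.30 to 10.83 in colon. It was the only one of 11 measured iron genes past 2-fold, and the duodenal iron reductase Cybrd1 had a difference of 0.65. Of the 11 measured genes of proximal small intestine, Slc2a2 was higher and Slc40a1 lower by over 2-fold, so that list did not lean one way.

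All 10 measured members of the Paneth list had positive differences in KO ileum, 4 of them at least 2-fold and 6 within 2-fold, and the median was 0.84. Over all genes 46.6% were above 0 and 0.622% at least 2-fold higher. The Paneth list had a median of 0.10 between the KO DSS replicates and of -0.22 in control colon. Both are from colon, where Paneth cells are few or absent and Defa24, for one, was at 4.10 to 4.29. These medians therefore do not measure how Paneth genes vary between ileum arrays. Ang4, an antimicrobial ribonuclease, was at 7.73 in WT and 9.77 in KO ileum (2.04 or 4.11-fold). Pnliprp2, a lipase of Paneth granules and pancreas, was at 10.07 and 11.62 (1.55). Habp2, a secreted serine protease, was at 8.65 and 9.86 (1.21), and the phospholipase gene Pla2g2a at 9.28 and 10.46 (1.18). Whether these mice make active Pla2g2a enzyme was not measured. Pla2g2a also differed by -1.04 between the KO DSS replicates. The protease that activates alpha-defensins, Mmp7, differed by 0.76, Defa24 (12.44 and 13.34) by 0.91, and lysozyme Lyz1 (14.04 and 14.26) by 0.22. Defa39, an alpha-defensin outside that list and named after its value was seen, was at 11.14 and 12.46 (1.31) in ileum and at 5.07 to 5.48 in colon. Only 10 of the 22 listed Paneth genes had a probe set with 1 symbol, and near-identical alpha-defensins can share probes, so single defensins are uncertain. The pancreas also makes Pnliprp2. Of 16 measured genes of the acinar pancreas 7 had positive differences and 9 negative, 1 was past 2-fold, the lipase cofactor Clps (11.33 in WT, 12.50 in KO; 1.17), and the mean level of the list was 6.31 in WT and 6.44 in KO ileum. The ribonuclease Rnase1 (6.46 and 7.38; 0.91) and the granule protein Sycn (7.96 and 8.62; 0.66) were also above 0, and the protease Prss2 was at 5.61 and 5.58. On both ileum arrays 13 of the 16 were below the median of all gene values, 7.33. The part of pancreatic RNA in these values was not tested.

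Crypt stem cell and Wnt genes had small positive differences in 15 of 16 measured members, with a median of 0.25 (0.18 between the KO DSS replicates) and none past 2-fold. The stem cell gene Olfm4 was at 11.52 in WT and 12.22 in KO ileum, Lgr5 at 9.19 and 9.76, and the stem cell transcription factor Ascl2 at 6.68 and 7.42. Of 26 measured cell cycle genes 19 were below 0 and none was past 2-fold. Their median was -0.06 (-0.43 between the KO DSS replicates), with Mki67 at 10.74 and 10.60. Enteroendocrine genes leaned higher (median 0.41, 14 of 20 above 0), with the hormones Gip (6.73 and 7.91; 1.18) and Sst (10.05 and 11.06; 1.02) past 2-fold. Tuft cell genes leaned lower, with 16 of 17 below 0, a median of -0.28 and none past 2-fold. Among them the cation channel Trpm5 was at 8.02 and 7.21 and the kinase Dclk1 at 8.18 and 7.58. Goblet cell genes leaned slightly lower, with 13 of 16 below 0 and a median of -0.10, against 0.32 between the KO DSS replicates. Muc2, the main secreted mucin, differed by -0.07, and 1 of the 16, Retnlb, was past 2-fold.

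Some inducible defence genes of the enterocyte were on the lower side. Of 21 measured genes of the Reg and epithelial antimicrobial list, 6 were at least 2-fold lower and 2 higher (Ang4, which the Paneth list also holds, and Lcn2), 13 were within 2-fold and the median was -0.33, against 0.266% of all genes at least 2-fold lower. Duox2, an epithelial oxidase that makes hydrogen peroxide, was at 11.30 in WT and 9.54 in KO ileum (-1.77), and Duoxa2, the factor that matures it, at 11.31 and 9.08 (-2.23 or 4.69-fold). Both control colon arrays were lower than either ileum array for these genes, at 8.77 and 8.86 for Duox2 and 8.32 and 8.38 for Duoxa2, while the DSS colon arrays were at 11.13 to 11.73 and 11.22 to 11.96. Nos2, the inducible nitric oxide synthase, had the same order, with 11.19 in WT and 9.97 in KO ileum (-1.22), 5.90 and 6.02 in control colon and 10.73 to 11.73 in DSS colon. WT ileum was thus in the range of DSS colon for all 3 genes, and KO ileum between control colon and DSS colon.

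Duox2 and Duoxa2 lie head to head on chromosome 2, and their promoter sequences are shown because the pair had differences of the same sign. They are from RefSeq (GRCm38.p6), each the 250 bases before the gene's start, written 5′ to 3′ in the gene's direction. The Duox2 window is chr2:122298228-122298477, minus strand, and the Duoxa2 window chr2:122298650-122298899, plus strand, with 172 bases between them. The letters TTCNNNGAA, the palindrome bound by STAT factors, were searched for on both strands and were in neither window; they occur in 8.13% of 27025 genes with such a window.
Duox2: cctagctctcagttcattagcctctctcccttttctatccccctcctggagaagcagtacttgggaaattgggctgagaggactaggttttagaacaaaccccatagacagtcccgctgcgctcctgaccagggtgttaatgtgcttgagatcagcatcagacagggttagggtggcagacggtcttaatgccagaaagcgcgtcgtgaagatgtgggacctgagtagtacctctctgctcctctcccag
Duoxa2: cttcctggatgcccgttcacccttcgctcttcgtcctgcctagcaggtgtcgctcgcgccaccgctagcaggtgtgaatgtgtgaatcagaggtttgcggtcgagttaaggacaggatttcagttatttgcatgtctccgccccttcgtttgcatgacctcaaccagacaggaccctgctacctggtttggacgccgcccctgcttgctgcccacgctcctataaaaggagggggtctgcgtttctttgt

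Fut2, which fucosylates the epithelial surface and so feeds and shapes the microbiota, was at 10.31 in WT and 8.10 in KO ileum (-2.21 or 4.63-fold) and at 11.27 to 12.71 in colon. Saa1, an acute phase protein made by the ileal epithelium, was at 7.55 in WT and 4.11 in KO ileum (-3.43), the KO value again below the lower quartile of its array, and at 8.30 to 8.98 in colon. Its neighbour Saa2, at 5.59 and 5.34, lay below the lower quartile of both ileum arrays (5.78 in WT, 5.71 in KO), so a fall could not be seen there. Saa genes are near-identical copies, so how signal divides between them is uncertain. Retnlb, a goblet cell protein that acts against bacteria, was at 6.42 and 4.63 (-1.79), was lower in KO control colon as well (8.87 in WT, 6.35 in KO), and differed by 1.60 between the KO DSS replicates. Not all defence genes were lower: the siderophore-binding protein Lcn2 was at 6.72 and 7.88 (1.16), and the lectins Reg3b and Reg3g differed by -0.33 and -0.34.

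Several other genes on the lower side were bright on every colon array. Fa2h, which hydroxylates the fatty acids of sphingolipids, was at 9.04 in WT and 6.46 in KO ileum (-2.58) against 10.13 to 10.97 in colon. Tat, which starts tyrosine breakdown, was at 8.76 and 6.22 (-2.55) against 8.46 to 10.49. Car1, a carbonic anhydrase typical of colon, was at 8.88 and 6.55 (-2.33) against 12.26 to 13.60, and Car4, its membrane-bound relative, at 12.36 and 10.98 (-1.38) against 12.63 to 13.27. Gsdmc2 (10.49 and 8.95; -1.55) and Gsdmc4 (10.45 and 9.36; -1.09), of the gasdermin family of pore-forming proteins, were at 10.98 to 12.39 and 11.43 to 12.59 in colon. The list of colonic genes as a whole had a median of -0.06 with 1 of 11 measured members past 2-fold each way (Car1 and Ang4). In contrast Ada, the adenosine deaminase of purine breakdown, was at 10.82 in WT and 8.80 in KO ileum (-2.02) and only at 6.96 to 8.04 in colon. Pla2g4c, a cytosolic phospholipase, had the same order (9.06 and 7.26; 5.71 to 6.95 in colon). AA467197 was at 11.40 and 9.56 (-1.85), and at 11.44 to 12.12 in colon.

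Some large negative differences belonged to genes that also varied between replicates. Of the 53 lower genes 12 (22.6%) were also 2-fold apart between the 2 KO DSS arrays, against 6 of the 124 higher genes (4.84%) and 1.24% of all genes. Among those named, the lipid transporter Abca12 (8.10 in WT and 5.83 in KO ileum) differed by 1.69 between the replicates, Car1 by 1.11, Tc2n (9.40 and 7.70 in ileum) by -2.69 and Nnat (9.59 and 7.77), an imprinted proteolipid, by 1.06. Retnlb (1.60), St6galnac1 (-1.89), Rpl34 (-1.18) and Nos2, at 10.73 and 11.73 on the KO DSS arrays, were also among the 12.

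Genes of the Hoxb cluster, which set position along the gut axis, were partly lower in KO ileum. These families were set apart after their values were seen. Of 9 measured Hoxb genes 8 had negative differences and 3 were at least 2-fold lower, with a median of -0.84. Hoxb6 was at 9.29 in WT and 7.74 in KO ileum (-1.55), Hoxb5 at 9.86 and 8.47 (-1.39) and Hoxb3 at 9.21 and 8.06 (-1.14). Hoxb9 (8.95 and 8.02) and Hoxb4 (8.32 and 7.48) missed 2-fold, and Hoxb2 had a positive difference of 0.26. Members of the Hoxa, Hoxc and Hoxd clusters had medians of -0.07, -0.04 and -0.10 and none past 2-fold. Their mean levels in WT ileum were 6.67, 6.34 and 6.04 against 8.11 for Hoxb, so they had less room to fall. The brightest of them, Hoxc8, was at 9.47 in WT and 10.13 in KO ileum (0.67), while 6 of 9 Hoxc genes were below 0. In control colon the Hoxb median was -0.18. Where along the ileum each sample was cut is not given in the labels, and the part of sampling position in these values was not tested.

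Of 29 measured interferon-stimulated genes 26 had positive differences in KO ileum, 4 were at least 2-fold higher, 25 were within 2-fold and the median was 0.58. The same list had medians of 0.19 in control colon, 0.18 in DSS colon and -0.01 between the KO DSS replicates. Rtp4, a chaperone that dampens antiviral sensing, was at 7.25 in WT and 8.73 in KO ileum (1.48). Ifi44l was at 5.64 and 6.86 (1.22), Ifit3, which helps Ifit1 bind foreign RNA ends, at 7.76 and 8.89 (1.13), and Rsad2, the antiviral radical enzyme viperin, at 7.07 and 8.19 (1.12). All DSS colon arrays were above KO ileum for Rtp4, Ifit3 and Rsad2, at 9.74 to 9.96, 9.77 to 10.13 and 8.64 to 9.39. Ifit1 was at 9.25 and 9.77 in ileum (0.53), and in control colon at 6.84 in WT and 8.40 in KO (1.56). Mx1 and the tether Bst2 were level, at -0.06 and -0.08.

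The promoters of Rsad2, Ifit3 and Ifit1 are shown as examples of a sequence that some members of this list hold. Each is the 250 bases before the start in RefSeq (GRCm38.p6), 5′ to 3′ in the gene's direction, with capitals at each match, on either strand, to the core of the interferon-stimulated response element (GAAA, any 2 bases, then GAAA again). The Rsad2 window (chr12:26456453-26456702, minus strand) holds 1 match, and the Ifit3 (chr19:34583279-34583528, plus strand) and Ifit1 (chr19:34640639-34640888, plus strand) windows hold 2 each.
Rsad2: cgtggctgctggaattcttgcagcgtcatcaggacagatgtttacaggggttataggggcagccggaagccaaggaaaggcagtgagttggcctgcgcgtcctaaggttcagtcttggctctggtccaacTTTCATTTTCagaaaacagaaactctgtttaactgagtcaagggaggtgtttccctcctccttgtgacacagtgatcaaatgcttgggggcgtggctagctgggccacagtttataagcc
Ifit3: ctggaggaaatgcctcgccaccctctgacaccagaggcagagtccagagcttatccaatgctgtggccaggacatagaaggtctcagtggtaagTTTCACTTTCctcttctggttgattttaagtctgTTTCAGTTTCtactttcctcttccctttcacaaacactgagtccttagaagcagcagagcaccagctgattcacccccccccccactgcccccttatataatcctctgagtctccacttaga
Ifit1: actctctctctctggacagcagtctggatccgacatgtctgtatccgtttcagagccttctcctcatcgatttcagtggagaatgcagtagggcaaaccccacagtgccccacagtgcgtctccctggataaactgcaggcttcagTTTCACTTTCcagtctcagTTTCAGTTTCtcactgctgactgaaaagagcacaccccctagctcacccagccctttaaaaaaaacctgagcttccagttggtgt
Of 23 listed interferon genes with a window, 9 (39.1%) held the letters, against 936 of 27025 genes (3.46%). The window of Ifi44l held none, which says only that these letters are not in those 250 bases. No factor binding was measured, and the search for these letters did not use the KO minus WT differences.

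MHC class II presents antigen to helper T cells. All 9 measured members of its list had positive differences, none reached 2-fold, and the median was 0.44, close to the 0.45 of control colon. The class II chains H2-Ab1 (11.97 in WT, 12.69 in KO) and H2-Aa (11.87 and 12.58), the invariant chain Cd74 (12.35 and 12.80) and their master regulator Ciita (8.15 and 8.86) differed by 0.73, 0.71, 0.44 and 0.71. The 19 measured interferon-gamma-induced GTPase genes had a median of 0.35, and the 14 genes of MHC class I processing 0.11, with none past 2-fold.

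Of 23 measured fibroblast and matrix genes 22 had positive differences in KO ileum and 6 were at least 2-fold higher, and the list's mean level was 8.67 in WT and 9.27 in KO ileum. The list's median was 0.43 in ileum and 0.50 between the 2 KO DSS replicates, so that arrays of one group differed as much. Sfrp1, a secreted Wnt inhibitor, was at 7.31 and 9.58 (2.27 or 4.81-fold). The collagen-binding proteins Col14a1 (7.86 and 9.22), Dpt (9.69 and 10.92), Lum (7.59 and 8.71) and Dcn (11.31 and 12.36), and the matrix protein Fbln1 (8.82 and 10.08), differed by 1.36, 1.23, 1.11, 1.04 and 1.25. Between the KO DSS replicates Sfrp1 differed by 0.82 and Lum by 0.92. The fibrillar collagens Col1a1 (0.15), Col1a2 (0.22) and Col3a1 (0.21) were much closer to level. In the same samples all 16 smooth muscle genes had negative differences (median -0.20, mean level 10.50 in WT and 10.27 in KO), none by 2-fold and against a median of 1.03 between the KO DSS replicates, with the contractile actins Acta2 at 12.56 and 12.48 and Actg2 at 11.73 and 11.32. Adipocyte markers were detected in both ileum samples, with Adipoq at 9.66 and 9.45. Their list had a median of -0.21, with 11 of 15 below 0 and 1, Pck1, at least 2-fold lower. How far the makeup of the piece of tissue sets these values was not tested.

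Of 16 measured genes of vessels and lymphatics 15 were above 0, 1 was at least 2-fold higher and 15 were within 2-fold, and the median was 0.35 (0.22 between the KO DSS replicates). Mmrn1, a protein of lymphatic endothelium and platelets outside that list, was at 6.13 in WT and 8.53 in KO ileum (2.40 or 5.29-fold). Lyve1, the hyaluronan receptor of lymphatic vessels, was at 8.60 and 9.53 (0.93), Flt4, the receptor for lymphatic growth factors, at 6.77 and 7.69 (0.92), and Emcn, of venous and capillary endothelium, at 8.12 and 9.25 (1.13). None of these 4 was 2-fold apart between KO and WT in control colon.

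Among immune genes the higher values lay with macrophages, complement and a few chemokines. Of 21 measured macrophage and dendritic genes 2 were at least 2-fold higher, Adgre1 (6.93 and 8.02; 1.09), a surface receptor that marks macrophages, and Lyz2 (10.88 and 11.88), and the median was 0.28. Cd209a, a lectin of dendritic cells outside that list, was at 6.77 in WT and 8.66 in KO ileum (1.89). Of 12 complement genes 10 were above 0, with a median of 0.55, and C3ar1, a receptor for the C3a fragment (8.11 and 9.60; 1.49), and the protease C1s1 (7.44 and 8.71; 1.28) were past 2-fold; C7, of the membrane attack complex and outside that list, was at 6.62 and 8.62 (2.01). Of 34 cytokines and chemokines 4 were higher, among them Cxcl13 (7.49 and 9.48; 1.99), which draws B cells into follicles, and Ccl11 (7.61 and 9.34; 1.73), which draws eosinophils. Naive and follicular B cell genes had a median of 0.24, with 1 of 17 past 2-fold (Bank1, 6.15 and 7.33), while Cr2, of follicular dendritic and B cells, was at 5.12 and 5.43. Igha, the heavy chain of IgA, was at 9.13 in WT and 11.64 in KO ileum (2.52 or 5.72-fold) in one probe set, and its other probe set differed by 2.07. The other plasma cell genes did not follow it: their list had a median of -0.05, the joining chain Jchain was at 12.42 and 12.33, and Ighm at 11.61 and 11.59. The 25 measured T and NK cell genes had a median of 0.07 and none past 2-fold.

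The lists of housekeeping pathways and of other cell types held few or no members past 2-fold. This was so for cholesterol synthesis (18 measured, median 0.18), oxidation of fatty acids (19, 0.12), the respiratory chain (22, -0.09), the unfolded protein response of the endoplasmic reticulum (22, -0.04), the antioxidant response (17, -0.13) and immediate early genes (24, 0.18), each with none. Enteric neurons and glia (21 measured, median -0.18), germinal centre B cells (11, -0.04), pacemaker and mesothelial cells (9, 0.05) and red blood cells (3, -0.15) also had none. Among 18 clock genes 1, the repressor Nr1d1, was past 2-fold (10.70 in WT, 9.52 in KO; -1.17). Among 22 genes of neutrophils, eosinophils and mast cells 1, the mucosal mast cell protease Mcpt2, was higher (5.64 and 6.76; 1.12), and among 12 genes of the follicle epithelium 1, the lysosomal protease Ctsh (8.34 and 9.44; 1.10). Outside all lists, Gabra3, a subunit of the GABA receptor, was at 6.72 in WT and 8.67 in KO ileum (1.95), against 5.93 to 6.60 in colon.

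**Figure D4:**
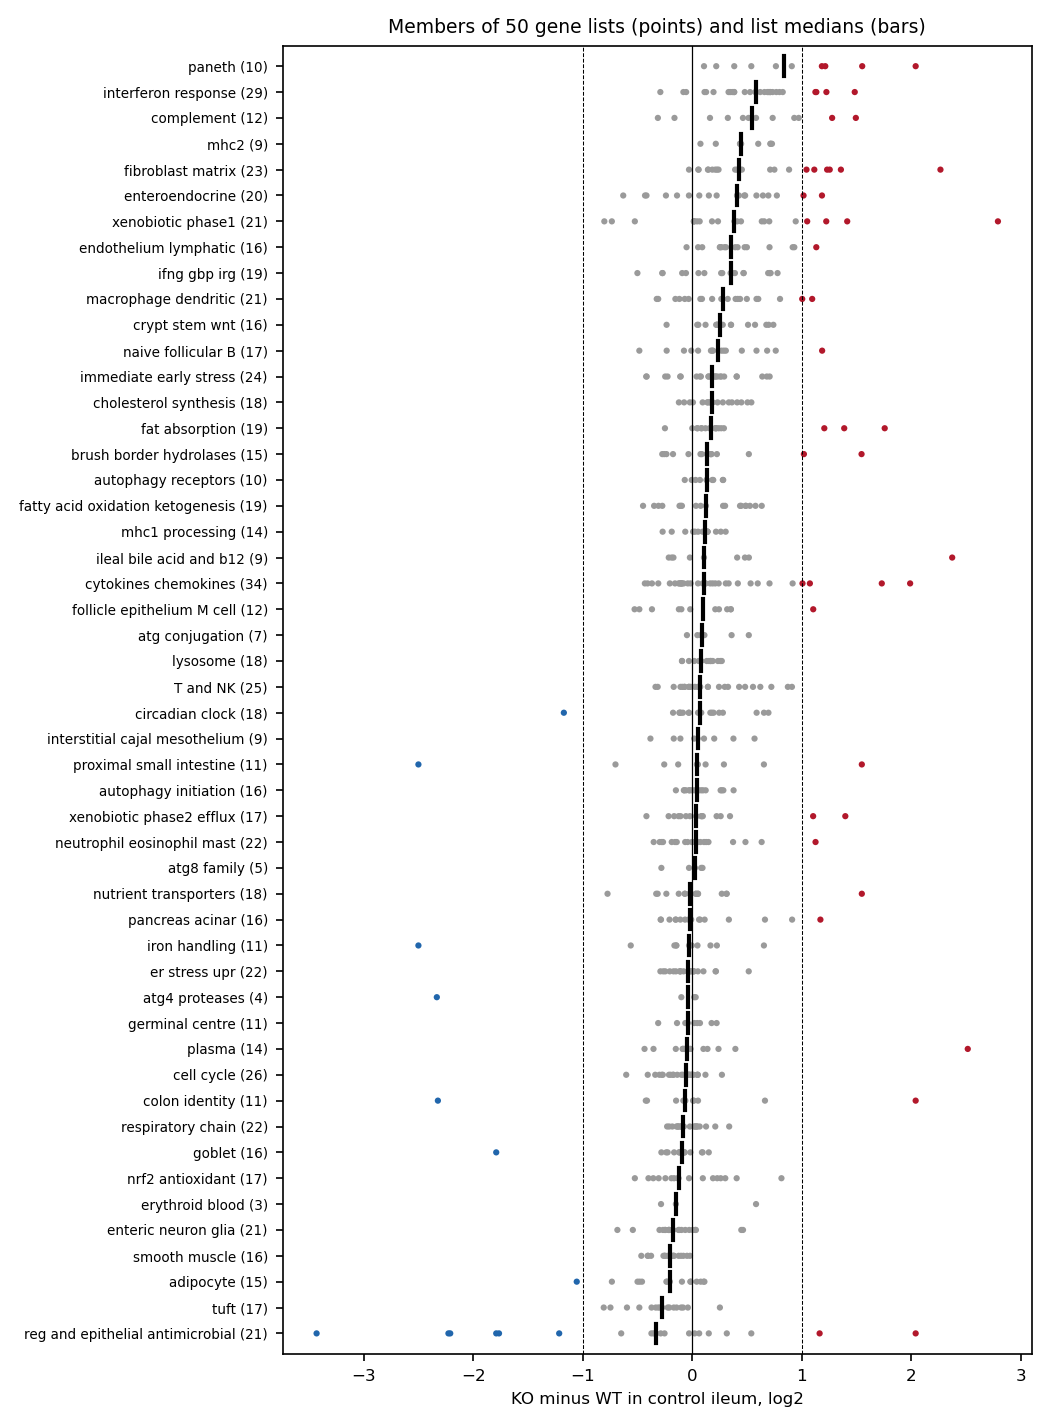
KO minus WT difference in ileum on the log2 scale (horizontal axis) for each measured member of 50 gene lists (points, red or blue past 2-fold) with the list median (bar) and the number measured in brackets. The Paneth list (median 0.84) and the interferon list (0.58) are at the top, and the Reg and epithelial antimicrobial list (-0.33) is at the bottom.

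Few of the genes past 2-fold in ileum were 2-fold apart in control colon. The shares were above those over all genes both for the same way and for the opposite way. Whether both tissues of a genotype came from 1 mouse is not known, so the tissues may not be independent. Of the 124 genes higher in KO ileum 3 were also at least 2-fold higher in KO control colon (background 0.176%): Rdh7 (1.19), Plb1 (1.03) and Ly86 (1.05), a partner of a Toll-like receptor relative on B cells and macrophages. Another 2 of the 124 were 2-fold lower there (background 0.286%). Of the 53 lower genes 3 were lower in control colon (background 0.286%): Atg4b, Retnlb (-2.52) and the sialyltransferase St6galnac1 (-1.16). Another 2 of the 53 were higher there (background 0.176%). A positive difference in control colon was found for 76 of the 124 higher genes (61.3%) and 21 of the 53 lower genes (39.6%), beside 41.0% of all genes.

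**Figure D5:**
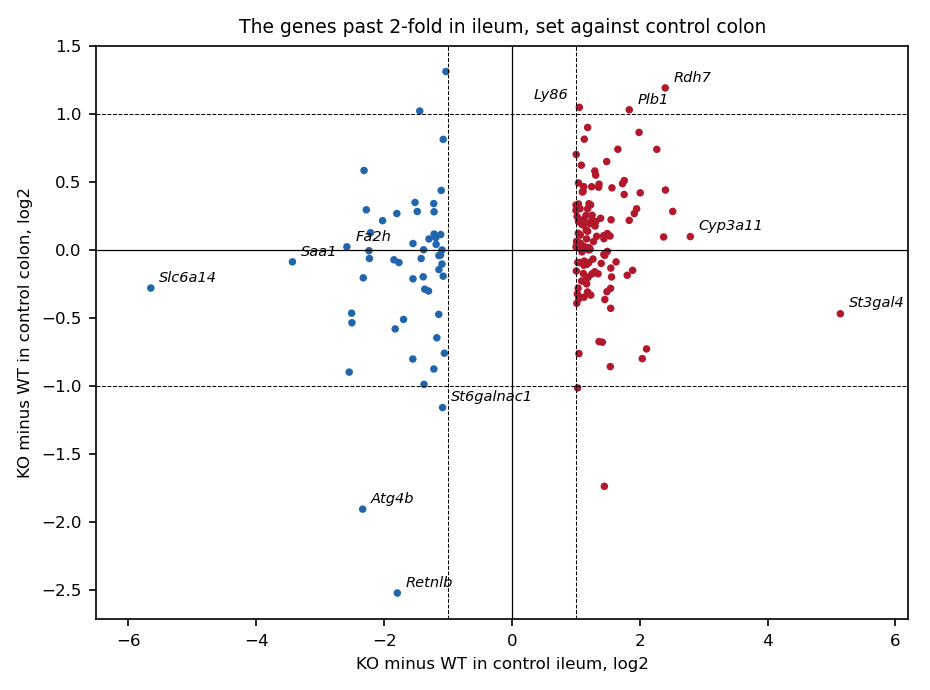
KO minus WT difference in control colon (vertical axis) against that in ileum (horizontal axis), both log2, for the 124 genes higher (red) and 53 lower (blue) in KO ileum, with dashed lines at 2-fold. Most points lie between the horizontal dashed lines, and Atg4b (-2.33 in ileum, -1.90 in colon) and Retnlb (-1.79 and -2.52) lie at the bottom.

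In DSS colon, mean KO minus WT differences of at least 2-fold in the direction of the ileum were found for 7 of the 124 higher genes (0.657% of all genes were higher there) and 3 of the 53 lower genes (0.226% of all genes were lower, and 0.883% were apart either way). The opposite direction was found for 2 of the 124 (Il1a and Wfdc17) and 4 of the 53 (Retnlb, Cd177, Olfr767 and 1810065E05Rik). The 7 were Cyp2c55, Cyp2c65, Dpt, Fbln1, Lum, Ifi44l and Sst. For Cyp2c55 and Cyp2c65 the DSS value rests on KO DSS replicate 1, at 9.69 and 9.72, since replicate 2 was at 4.78 and 5.34 and WT at 4.81 and 5.31. For Ifi44l both KO DSS arrays (10.03 and 8.95) were above WT DSS (5.82), and for the matrix genes Dpt (10.34 and 9.34 against 8.52), Fbln1 (9.51 and 9.0 against 8.16) and Lum (8.89 and 7.97 against 7.22) as well. Beside Atg4b, the lower genes were Rpl34, a ribosomal protein, and the predicted gene Gm10044. For Rpl34 the value rests on KO DSS replicate 1 (9.38 against 11.05 in WT), since replicate 2 was at 10.56. Atg4b was the only gene at least 2-fold apart in one direction in ileum, control colon and DSS colon. A positive difference in DSS colon was found for 92 of the 124 higher genes (74.2%) and 24 of the 53 lower genes (45.3%), beside 52.0% of all genes.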

How the data were processed

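Total RNA of mouse ileum and colon was labelled with biotin using Affymetrix reagents, per the labels' protocols, and run on 1 array per sample (7 arrays, 6 groups by tissue, genotype and treatment). The authors deposited 1 linear intensity per probe set and array, from 10.4 to 22236.4, with array medians of 121.4 to 126.45. Their summarisation and normalization are not given in the sources used here; if arrays were equalised, a shift shared by all genes is lost. Log2 of the deposited intensity was computed here without an offset, where the design had foreseen deposited log2 values. Of 35512 probe sets 21789 have 1 gene symbol in the platform annotation, 1621 several and 12102 none here; only the first were named, and 21698 matched RefSeq by gene ID. For 999 genes with several probe sets, the brightest probe set (by its mean over the arrays) was taken. A gene was counted as 2-fold at a log2 difference of 1, with no test.

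A secondary test used limma 3.58.1 in R 4.3.3 (lmFit, eBayes, Benjamini-Hochberg over all genes) with 6 group means. The KO DSS pair alone gives residual spread (1 residual and 2.82 prior degrees of freedom, prior SD 0.14). The labels do not say whether arrays are separate animals, so a p-value reflects array-to-array spread that may be technical. The script was tested on simulated data. Figures used matplotlib 3.10.9.

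The comparison, the 51 gene lists (1 for sex markers) and the rules were chosen with earlier results of these data known. The genes named are the 15 largest differences each way among genes with 1 symbol above the median of all gene values (7.33) on the brighter ileum array, without sex markers, small RNAs, predicted genes or receptor and immunoglobulin segments; Atg4b, its relatives and flanking genes; up to 5 of each list; and those past 2-fold in ileum and colon. Hox, Defa, Gsdmc, Saa and Car members and other genes past 2-fold, and list members named because they differed little, were added after their values were seen. Alternatives were quantile normalization, centring arrays on the median, leaving out dim genes, all probe sets, mean of probe sets, an offset of 50, a variance trend with robust fit, and 5 coefficients, the last also without each colon array.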

Additional observations from a re-analysis of the deposited data

How the results depend on the processing

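The counts of 124 genes higher and 53 lower became 107 and 54 with quantile normalization, 124 and 53 with centring, 109 and 45 without dim genes, and 123 and 53 with the mean of probe sets. Over all 35512 probe sets, named or not, 272 were higher and 151 lower. With an offset of 50 before log2, 71 were higher and 41 lower. The offset shrinks every difference, most for dim genes, so these could only be among the genes counted without it. For KO against WT in ileum limma called 0 genes, 1 with centring (Slc6a14, adjusted p = 0.0416), 9 with a variance trend and robust fit and 7 with 5 coefficients, and 0 under the other alternatives. For the ileum effect minus the control colon effect it called 0, and 3 with a variance trend and robust fit. None of the named genes past 2-fold changed sign under quantile normalization or the mean of probe sets, which can move only genes with several probe sets. The offset cannot reverse a sign, and centring shifts every difference by the same small amount, so the kept signs under these were fixed in advance. Of 81 such genes 62 remained past 2-fold with the offset. No paired analysis was possible because only the 2 KO DSS arrays carry replicate numbers. In the 6-group model leaving out either of them leaves no residual degree of freedom, and leaving out an ileum array leaves no comparison, so neither was run. In the model with 5 coefficients, leaving out each colon array in turn, an alternative chosen after seeing the data, gave 0 to 59 calls, with 59 without KO DSS replicate 1 and 0 without each of the other 4. Signal over background limits genes near the floor, whose differences are compressed: of 5538 genes at a log2 intensity of 6 or less on both ileum arrays, 1 was 2-fold higher and 1 lower.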
